A study of Mus musculus with 12 samples.

Results

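The 10 genes described here make up the ATF4 axis of the mitochondrial integrated stress response: Atf4, Atf5, Ddit3, Trib3, Asns, Chac1, Fgf21, Gdf15, Psat1 and Mthfd2. They were taken by name, as a known response of the heart to defects of the respiratory chain, and the rule used no measured value, although the list was drawn up with earlier results of these data known. All 10 were found among the 53700 genes of the count table. Of these, 9 had enough counts to be tested, and Fgf21 did not.

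In the integrated stress response, kinases that sense amino acid shortage, unfolded protein, double-stranded RNA or heme deficiency phosphorylate the translation factor eIF2α. Bulk translation then falls, while the mRNA of the transcription factor ATF4 is translated more efficiently, so the response can run with little change in Atf4 mRNA. Mitochondrial dysfunction reaches this pathway through the protease OMA1 and its substrate DELE1, which activates the kinase HRI. ATF4, with partners such as CHOP and ATF5, drives genes for amino acid synthesis and uptake, mitochondrial folate metabolism, feedback inhibitors and the secreted hormones FGF21 and GDF15. In mice with inherited defects of mitochondrial DNA expression, the heart is among the tissues in which these genes are known to be induced.

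The samples were whole-heart RNA of 12 mice, with 6 in the ac-WT and 6 in the ac-CYB5R3-KO group. Both groups were male and carried the tamoxifen-inducible Cre transgene Myh6-CreERT2. At 10 to 13 weeks of age they were given 5 daily doses of tamoxifen (33 mg/kg), and the hearts were taken 5 days later. They differed in the Cyb5r3 gene, which was CYB5R3wt/wt in ac-WT and CYB5R3fl/fl in ac-CYB5R3-KO mice. Cyb5r3 encodes cytochrome b5 reductase 3, a flavoenzyme that passes electrons from NADH to cytochrome b5 and other acceptors, and the Myh6 promoter confines its deletion to cardiomyocytes, so that other cells of the heart keep the gene.

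Total counts were between 43393183 and 53754284 per heart. The targeted gene was measured at 126 ± 38.4 CPM (counts per 1000000 counts of the TMM-scaled library; mean ± SD, n = 6) in ac-WT and 53.7 ± 9.07 CPM in ac-CYB5R3-KO hearts, with no overlap (adjusted p = 0.045, edgeR's quasi-likelihood test with Benjamini-Hochberg adjustment; 1.39e-06 to 0.315 over 20 alternatives). The scaling factors (TMM) of ac-WT hearts 2 and 3 were 0.57 and 0.723, against 0.988 to 1.22 in the other 10 hearts. Cardiomyocyte markers were present in all hearts, at summed levels of 24000 to 56100 CPM in ac-WT and 17700 to 29000 CPM in ac-CYB5R3-KO hearts, with 5 of 10 lower at an unadjusted p under 0.05 (3 under total count scaling and 2 without ac-WT hearts 2 and 3). Summed red blood cell markers were at 222 to 4490 against 1320 to 12200 CPM, with 3 of 4 higher. This count was 0 when any one of ac-WT hearts 3, 4 and 5 or ac-CYB5R3-KO hearts 3 and 6 was left out. Cartilage and airway markers were at 4.13 to 35.6 against 37.9 to 96.9 CPM, with 3 of 4 tested genes higher (1 with 10 counts required in every library) and the airway genes Scgb1a1 and Sftpc too low to test. Of the other lists, 1 of 5 lymphocyte genes was higher, 1 of 6 macrophage genes was lower (4 without ac-WT hearts 2 and 3), and 0 of 6 fibroblast, 0 of 6 endothelial and 0 of 1 adipocyte genes passed that threshold. The lymphocyte count was 0 with 10 counts required in every library. It was 2 with total counts, a block for replicate number, limma-voom, and without ac-WT heart 1 or 5. Without ac-WT hearts 2 and 3, 1 fibroblast gene was lower, and without ac-WT heart 1, 1 adipocyte gene was. The part of these markers in the results below was not tested, and in RNA from whole hearts fewer cells of a type and less RNA per cell cannot be told apart.

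Of the stress response genes, Mthfd2 was 1.69-fold and Chac1 1.72-fold higher in ac-CYB5R3-KO hearts, short of the adjusted threshold, and with TMM scaling every ac-CYB5R3-KO heart lay within the ac-WT range for the transcription factor genes Atf4, Atf5 and Ddit3. At an adjusted p under 0.05, 0 of the 9 tested genes differed between the groups, where 18 of all 17847 genes tested (0.101%) did (edgeR). DESeq2 called 1 of the 9, Mthfd2, and limma-voom 0. At an unadjusted p under 0.05, 2 of the 9 were higher in ac-CYB5R3-KO hearts, namely Mthfd2 and Chac1, and 0 were lower. Over all genes, 4.91% were higher and 9.73% lower at that threshold. The median log2 fold change was 0.152 for the 9 genes and -0.007 for all genes, and 7 of the 9 were positive. With libraries scaled by total counts in place of TMM, the median of all genes was 0.256 and that of the members 0.462, the same number of members (7 of 9) lay above the median of all genes, and the genes past the unadjusted threshold were 1686 higher and 367 lower, against 877 and 1737.

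**Figure D1:**
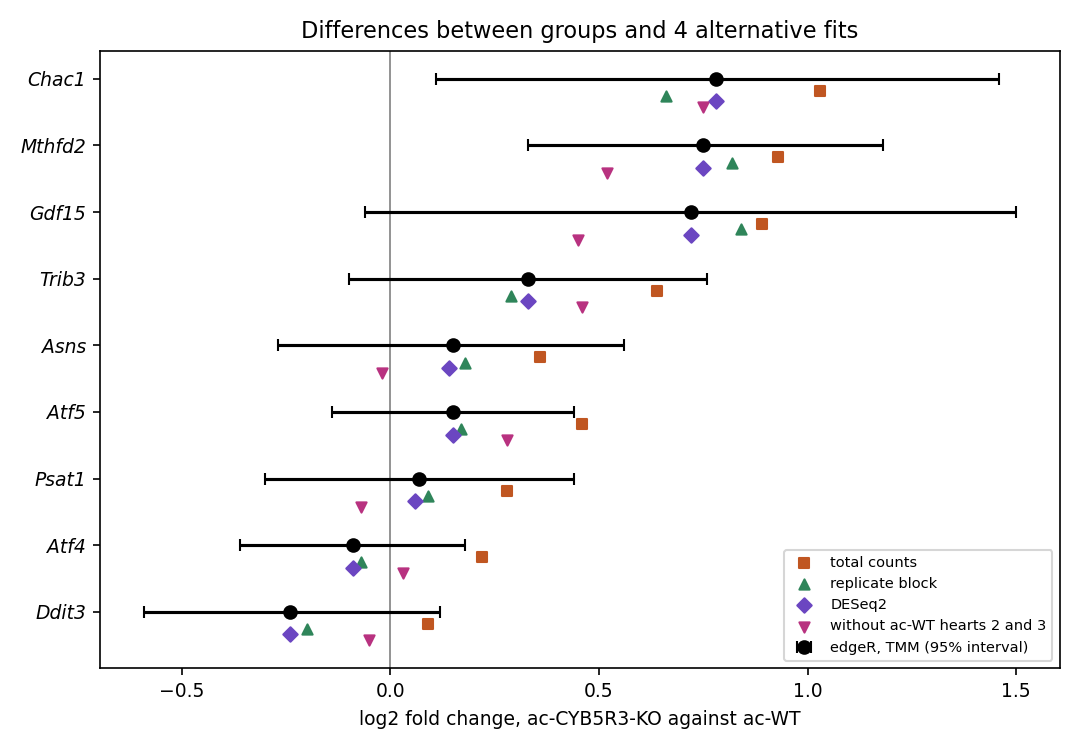
Log2 fold change of each tested stress response gene, ac-CYB5R3-KO over ac-WT, with its 95% confidence interval from edgeR with TMM (black, 6 hearts per group) and the values of 4 alternatives as colored symbols (total counts, replicate block, DESeq2, and without ac-WT hearts 2 and 3). The edgeR intervals of Mthfd2 (0.33 to 1.18) and Chac1 (0.11 to 1.46) lie above 0, and those of the other 7 genes include it.

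The promoters were searched for the element that ATF4 binds together with C/EBP factors. All 10 genes were in a table of RefSeq promoters (GRCm38.p6), each 300 bases long from 250 before to 50 after a transcription start. The core of the C/EBP-ATF response element, TGATGNAA on either strand, was found in a promoter of 4 of the 10 genes, namely Chac1, Trib3, Asns and Fgf21, against 4.51% of all 27025 genes in the table. The cAMP response element TGACGTCA was in 0 of 10, against 2.03%, so no match of these motifs overlapped another. The stretches holding the 4 matches are printed 5′ to 3′ on the strand of the gene with the match in capitals, and the 250 bases before the start of Mthfd2, the member whose groups did not overlap, are printed to show a window without a match to either motif. The Chac1 stretch is chr2:119351013-119351092 (plus strand), and those of Trib3, Asns, Fgf21 and Mthfd2, all on the minus strand, are chr2:152344028-152344057, chr6:7693210-7693268, chr7:45615586-45615665 and chr6:83317605-83317854.
Chac1: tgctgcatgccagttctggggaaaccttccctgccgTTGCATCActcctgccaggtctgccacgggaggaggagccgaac
Trib3: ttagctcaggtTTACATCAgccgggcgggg
Asns: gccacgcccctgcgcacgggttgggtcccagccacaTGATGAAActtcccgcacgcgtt
Fgf21: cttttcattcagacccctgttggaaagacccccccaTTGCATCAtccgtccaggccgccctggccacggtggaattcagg
Mthfd2: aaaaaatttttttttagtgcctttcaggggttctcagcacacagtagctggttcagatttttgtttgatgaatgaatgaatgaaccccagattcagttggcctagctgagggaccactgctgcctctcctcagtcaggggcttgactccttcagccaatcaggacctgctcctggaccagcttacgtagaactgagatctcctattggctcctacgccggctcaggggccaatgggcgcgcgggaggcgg

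The match begins 193 bases before the start in Chac1, 139 before it in Fgf21 and 23 before it in Asns, and in Trib3 it begins at base 14 after the start. A match is a description of the letters and not a binding site. The 4 genes with a match differed widely in these hearts, with Fgf21 at the limit of detection, log2 fold changes of 0.15 and 0.33 in Asns and Trib3, and 0.78 in Chac1.

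The clearest separation among the members was in Mthfd2 (ENSMUSG00000005667), the mitochondrial enzyme that oxidizes methylenetetrahydrofolate in folate metabolism and is normally scarce in adult tissue. Its level was 2.91 to 7.66 CPM in ac-WT hearts (median 5.42), and ac-CYB5R3-KO hearts held 7.78 to 9.75 CPM (median 8.35). Every ac-CYB5R3-KO heart was thus above every ac-WT heart, although the highest ac-WT heart (heart 6) and the lowest ac-CYB5R3-KO heart (heart 6) lay close together. Of all genes tested, 0.51% separated in this direction, and Mthfd2 was the 1 member of 9 that did. The means of 5.09 ± 1.75 and 8.62 ± 0.89 CPM (SD, n = 6) corresponded to a difference of 0.75 on the log2 scale (SE 0.2), or 1.69-fold (95% interval 1.25 to 2.27). The unadjusted p was 0.00209, rank 213 of all genes, and the adjusted p was 0.173. The two-sided exact permutation test gave 0.00216, which is the smallest p that 6 hearts against 6 can give. Under the 20 alternative settings the log2 difference was 0.52 to 0.93, with the unadjusted p under 0.05 in all 20. The adjusted p ran from 0.0265 with DESeq2, which called 2.45% of genes, to 0.399 with total counts. The 2 lowest hearts for Mthfd2 were ac-WT hearts 3 and 2, at 2.91 and 3.35 CPM. Without both, the log2 fold change was 0.52 (unadjusted p = 0.00153, edgeR).

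**Figure D2:**
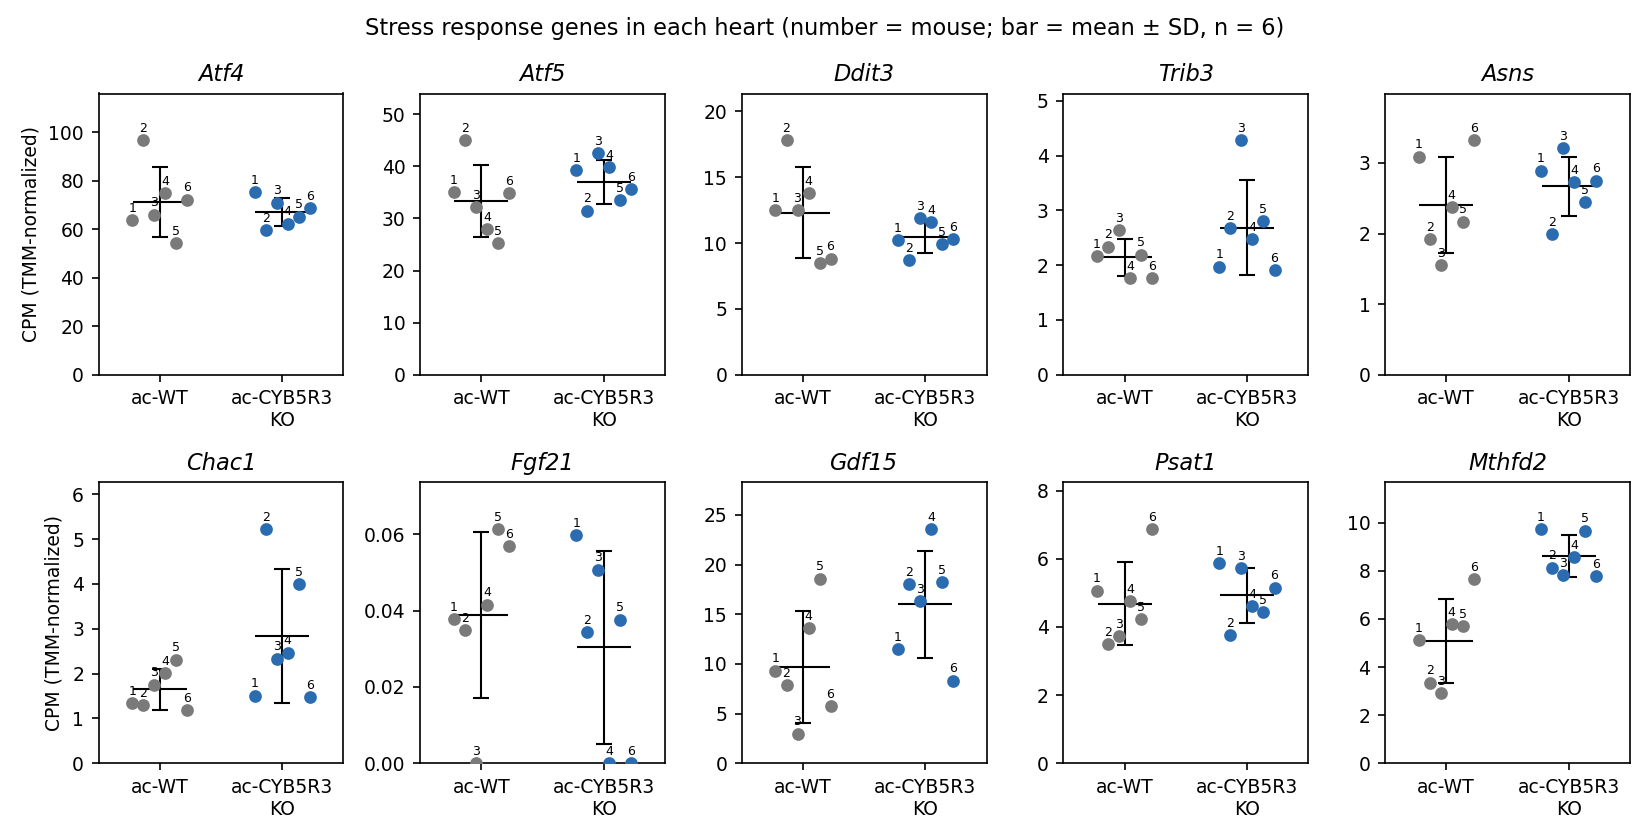
CPM (TMM-scaled, linear axes from 0) of each of the 10 genes in the 12 hearts, with 1 point per heart, numbered by replicate, a bar at the group mean and error bars of 1 SD. Mthfd2 is the only gene of the 10 whose groups do not overlap, with ac-CYB5R3-KO hearts from 7.78 CPM up and ac-WT hearts up to 7.66 CPM.

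Atf4 and Atf5, at the head of the response, were the most abundant members. Per length, Atf4 was at 41.3 ± 8.34 RPKM (CPM per kilobase of exon) in ac-WT hearts, Atf5 at 16.8 ± 3.48 RPKM and Ddit3, which encodes CHOP, at 7.19 ± 2.01 RPKM (SD, n = 6). Gdf15 followed at 5.23 ± 3.05 RPKM, within the spread of Ddit3. Mthfd2 was next at 1.87 ± 0.641 RPKM, then Psat1, Trib3, Chac1 and Asns between 0.879 and 1.1 RPKM, which differed from each other by less than their SDs. In ac-CYB5R3-KO hearts the order was the same down to Mthfd2 except that Gdf15 (8.63 ± 2.92 RPKM) stood above Ddit3 (6.09 ± 0.681 RPKM), and Chac1 stood at 1.73 ± 0.91 RPKM, above Trib3 at 1.26 ± 0.405 RPKM and Psat1 at 1.16 ± 0.191 RPKM. These changes of order lay within the SD of Gdf15 and of Chac1.

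With TMM scaling and all hearts, none of the 3 transcription factors passed the unadjusted threshold. Atf4 was measured at 54.1 to 96.6 CPM in ac-WT hearts (median 69.1) and at 59.6 to 75.3 CPM in ac-CYB5R3-KO hearts (median 66.9). The ac-CYB5R3-KO range lay wholly inside that of ac-WT, and the log2 fold change was -0.09 (95% interval -0.36 to 0.18, adjusted p = 0.762, edgeR), with a positive sign without ac-WT heart 2 (0.03), without ac-WT hearts 2 and 3 (0.03) and under total count scaling (0.22). Atf5, an ATF4-related factor implicated in the mitochondrial unfolded protein response, was 25.2 to 45.0 CPM in ac-WT (median 33.5) and 31.5 to 42.6 CPM in ac-CYB5R3-KO hearts (median 37.5). Its groups overlapped, with a log2 fold change of 0.15 (-0.14 to 0.44, adjusted p = 0.607, edgeR) and an exact permutation p of 0.251. It depended on the scaling, with 0.46 under total counts (unadjusted p = 0.00983, edgeR; exact permutation p = 0.00866), where the median of all genes was 0.256, and on ac-WT heart 2, without which it was 0.27 (unadjusted p = 0.0367, edgeR) and, with heart 3 left out too, 0.28 (unadjusted p = 0.0364, edgeR). Ddit3 ran from 8.49 to 17.8 CPM (median 12.5) against 8.7 to 11.9 CPM (median 10.3). Its log2 fold change was -0.24 (-0.59 to 0.12, adjusted p = 0.515, edgeR) and 0.09 under total count scaling, so its sign depended on the scaling. The heart with the highest Atf4, Atf5 and Ddit3 was ac-WT heart 2 in each case, which also had the lowest scaling factor. In the mm9 annotation, exons of Atf5 overlap those of Nup62 and Il4i1 and exons of Ddit3 those of Mars on the opposite strand, and since the strand setting of the counting is not given in the sources used here, reads of these pairs may not have been kept apart.

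Chac1 and Trib3 are targets of ATF4 and CHOP, the first an enzyme that degrades glutathione and the second a pseudokinase that feeds back on ATF4, and both have a match among the promoter stretches printed above. Chac1 was 1.18 to 2.31 CPM in ac-WT hearts (median 1.54), and ac-CYB5R3-KO hearts held 1.47 to 5.23 CPM (median 2.4). Hearts 2 and 5 of the ac-CYB5R3-KO group were highest, at 5.23 and 4.0 CPM, hearts 3 and 4 lay just above the ac-WT maximum, and hearts 1 and 6, at 1.51 and 1.47 CPM, were inside the ac-WT range. The log2 fold change was 0.78 (SE 0.31, 95% interval 0.11 to 1.46), or 1.72-fold, with an unadjusted p of 0.0262 and an adjusted p of 0.272 (edgeR), and the exact permutation p was 0.0801. Leaving out ac-CYB5R3-KO heart 2 gave a log2 fold change of 0.52 with an unadjusted p of 0.0843 (edgeR), and the unadjusted p also exceeded 0.05 without ac-CYB5R3-KO heart 5 (0.0644), ac-WT heart 1 (0.0534) or ac-WT heart 6 (0.0544), without ac-WT hearts 2 and 3 together (0.0671) and with limma-voom (0.0568). Trib3 was 1.76 to 2.64 CPM in ac-WT (median 2.18) and 1.91 to 4.28 CPM in ac-CYB5R3-KO hearts (median 2.58). Of the latter group, 3 of 6 hearts exceeded the ac-WT maximum, and the log2 fold change was 0.33 (-0.1 to 0.76, adjusted p = 0.459, edgeR). It was 0.15 without ac-CYB5R3-KO heart 3 and 0.64 under total count scaling, where the exact permutation p was 0.0173 (0.171 with TMM). The heart highest in Trib3 was ac-CYB5R3-KO heart 3, and the heart highest in Chac1 was ac-CYB5R3-KO heart 2.

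Asns and Psat1, which encode asparagine synthetase and the aminotransferase step of serine synthesis, did not differ beyond the spread between hearts. Asns was 1.55 to 3.32 CPM in ac-WT (median 2.27) and 1.99 to 3.21 CPM in ac-CYB5R3-KO hearts (median 2.74), which is 0.15 on the log2 scale (-0.27 to 0.56, adjusted p = 0.742, edgeR). Psat1 ran from 3.49 to 6.88 CPM (median 4.48) against 3.75 to 5.88 CPM (median 4.88), a log2 fold change of 0.07 (-0.3 to 0.44, adjusted p = 0.878, edgeR). For both genes every ac-CYB5R3-KO heart lay inside the ac-WT range, and both signs turned without ac-WT hearts 2 and 3 (-0.02 and -0.07). The upper ends of the intervals correspond to a 1.47-fold and a 1.35-fold higher level.

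Within each heart, which removes the scaling between libraries, Mthfd2 separated the groups relative to Psat1 and to Atf4. The ratio of Mthfd2 to Psat1 CPM was 0.784 to 1.35 (median 1.06) in ac-WT and 1.37 to 2.18 (median 1.76) in ac-CYB5R3-KO hearts, without overlap. The ratio of Mthfd2 to Atf4 was 0.0347 to 0.106 in ac-WT and 0.111 to 0.149 in ac-CYB5R3-KO hearts, also without overlap. The ratio to Asns overlapped, at 1.66 to 2.63 and 2.44 to 4.08, with 5 of 6 ac-CYB5R3-KO hearts above the ac-WT maximum. The ratio of Asns to Psat1, in contrast, was 0.418 to 0.61 in ac-WT and 0.492 to 0.591 in ac-CYB5R3-KO hearts, so the latter range lay inside the former. These ratios were chosen after the values were seen and are given without a test.

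**Figure D3:**
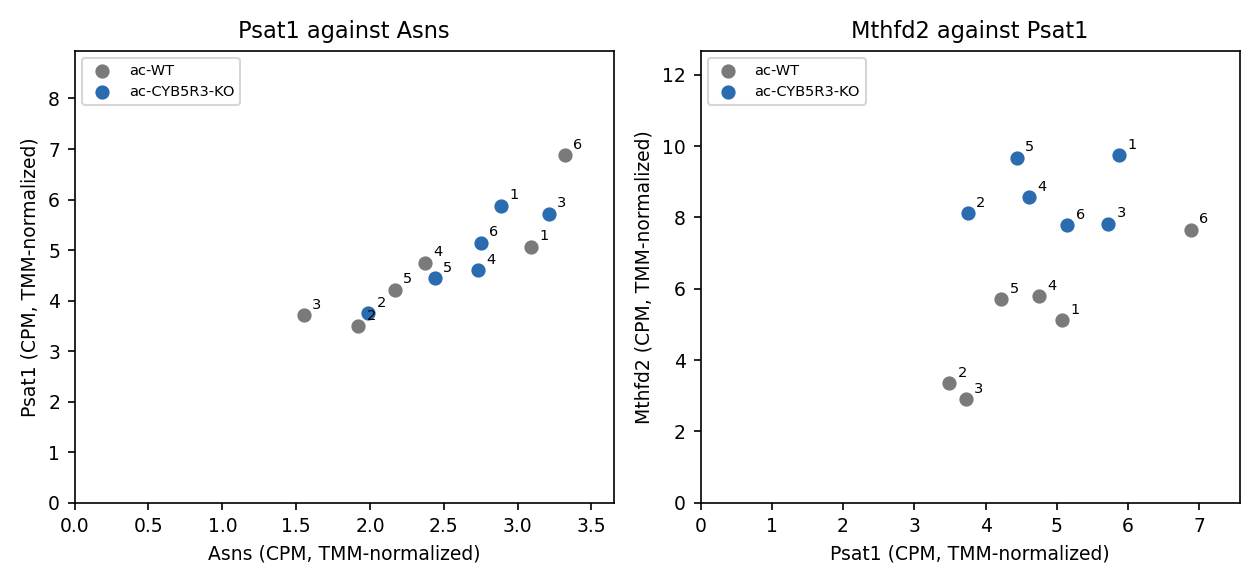
Levels in CPM of Psat1 (vertical) against Asns (left panel) and of Mthfd2 (vertical) against Psat1 (right panel) in the 12 hearts, with 1 point per heart, marked by group and labelled with its replicate number. The hearts of both groups follow 1 trend for Psat1 against Asns, while for Mthfd2 the ac-CYB5R3-KO hearts lie above the ac-WT hearts at a given Psat1 level, with Mthfd2 to Psat1 ratios of 1.37 to 2.18 against 0.784 to 1.35.

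The 2 hormones of the response differed in whether they were detectable. Fgf21, a circulating metabolic hormone, had 0 to 3 counts in every heart, 11 counts in all 6 ac-WT and 10 in all 6 ac-CYB5R3-KO hearts. A heart with 0 counts allows a level of up to 3 counts, or 0.0507 to 0.105 CPM over the 12 hearts, and as both groups are at or under that floor no fold change is given. This floor covers counting error only. Gdf15, a stress-induced hormone of the TGF-β family, was 2.97 to 18.6 CPM in ac-WT (median 8.59) and 8.32 to 23.6 CPM in ac-CYB5R3-KO hearts (median 17.1). It was the most variable of the tested members in ac-WT hearts, with a coefficient of variation of 58.3%, and 1 of 6 ac-CYB5R3-KO hearts exceeded the ac-WT maximum. The means were 9.68 ± 5.64 and 16.0 ± 5.4 CPM (SD, n = 6), with a log2 fold change of 0.72 (SE 0.36, 95% interval -0.06 to 1.5, unadjusted p = 0.0686, adjusted p = 0.378, edgeR) and an exact permutation p of 0.0714. The unadjusted p fell under 0.05 in 7 of 20 alternatives, and without ac-WT hearts 2 and 3 the log2 fold change was 0.45 (unadjusted p = 0.193, edgeR). Of the receptors through which these hormones act, the GDF15 receptor gene Gfral was listed at 0 in all hearts and the FGF21 co-receptor gene Klb was too low to test. Ret, the partner of GFRAL, was at 3.28 ± 1.41 CPM in ac-WT and 2.04 ± 0.513 CPM in ac-CYB5R3-KO hearts (log2 fold change -0.67, unadjusted p = 0.0225, adjusted p = 0.267, edgeR), a call lost under total count scaling, without ac-WT heart 2 or ac-CYB5R3-KO heart 4, and without ac-WT hearts 2 and 3, and Fgfr1 was at 37.5 ± 8.96 and 44.7 ± 3.44 CPM (0.25, adjusted p = 0.446, edgeR).

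Between hearts of the same group, positive and negative relations among the members were equally frequent. After group means were removed from log2(CPM + 1), 18 of the 36 pairs of tested members had a positive Pearson correlation over 12 hearts, with a median r of -0.0239 and a range of -0.614 to 0.908. Under total count scaling 33 of 36 pairs were positive, so this count depended on the scaling. The 1 pair past a Benjamini-Hochberg adjusted p of 0.05 was Asns with Psat1 (r = 0.908, permutation p = 0.00018, adjusted over 36 pairs 0.00648; Spearman's rho = 0.937, permutation p = 4e-05, adjusted 0.00144). Without the 2 hearts farthest from the median of Asns, r was 0.891. Atf4 had a correlation of 0.752 with Atf5 and 0.715 with Ddit3 (adjusted permutation p = 0.154 and 0.163), which dropped to 0.21 and 0.122 without the 2 farthest hearts and so rested on those hearts. The genes most like the mean of the tested members over the 12 hearts were Osgin1 (r = 0.842), Pth1r (0.826), Gm8098 (0.825), Plod1 (0.825) and Gm6397 (0.813). They were picked as the highest of all genes and are given without a test.

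Beyond the 10 members, 88 genes of the surrounding pathways could be tested, of which 6 were higher and 6 lower at an unadjusted p under 0.05, or 6.82% in each direction against 4.91% higher and 9.73% lower over all genes, and 0 passed the adjusted threshold with edgeR (1 with DESeq2, Atf3, and 0 with limma-voom). The median log2 fold change of the 88 was 0.066. Under total count scaling 13 were higher and 1 lower, and without ac-WT hearts 2 and 3 the counts were 3 and 3.

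Upstream, none of the 10 genes for the eIF2α kinases, eIF2α itself, its phosphatase and the mitochondrial relay passed the unadjusted threshold (median -0.016). The kinase gene Eif2ak3, which encodes PERK, was at 7.04 ± 1.04 CPM in ac-WT and 7.76 ± 0.427 CPM in ac-CYB5R3-KO hearts. Oma1 was at 10.5 ± 1.27 and 9.19 ± 1.34 CPM, with a log2 fold change of -0.19 that turned to 0.08 under total count scaling. Dele1 was at 40.1 ± 17.5 and 30.0 ± 4.11 CPM, with a log2 fold change of -0.42 (adjusted p = 0.419, edgeR) that was 0.01 without ac-WT hearts 2 and 3. Without ac-WT heart 6 it was -0.54 and passed the unadjusted threshold (unadjusted p = 0.0245, edgeR).

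Among 12 partners and effectors of ATF4, 2 were higher and 1 lower at the unadjusted threshold (median 0.019), with 4 higher under total count scaling, 1 without ac-WT hearts 2 and 3, and 0 to 3 with 1 heart left out. With the replicate block 2 were lower. Without the block the lower gene was Atf3, a stress-inducible repressor and activator of the same family, at 7.77 to 49.4 CPM (median 19.8) in ac-WT and 6.69 to 14.3 CPM (median 10.3) in ac-CYB5R3-KO hearts. The groups overlapped at their low ends and the ac-WT hearts were widely spread. Its log2 fold change was -1.17 (SE 0.36, unadjusted p = 0.0058, adjusted p = 0.195, edgeR; exact permutation p = 0.039), and over the alternatives the adjusted p ran from 0.0484 with DESeq2 to 0.41. The higher genes were Stc2, a secreted glycoprotein, at 13.6 ± 3.42 against 21.0 ± 7.54 CPM (log2 fold change 0.63, adjusted p = 0.249, edgeR), and Nupr1, a small stress-induced chromatin protein, at 12.5 ± 4.11 against 17.2 ± 2.63 CPM (0.45, adjusted p = 0.321, edgeR). Their exact permutation p was 0.0563 and 0.0411. Stc2 passed the unadjusted threshold in 18 of 20 alternatives and Nupr1 in 13. Neither passed it without ac-WT hearts 2 and 3 (unadjusted p = 0.063 and 0.111, edgeR). Atf3 thus lay in the opposite direction from Mthfd2 and Chac1 in the same hearts.

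Mthfd2 belongs to the wider set of serine, folate and proline synthesis enzymes. Of 11 other tested genes of that set, 0 were higher and 1 was lower at the unadjusted threshold, with a median of 0.082. Under total count scaling 2 were higher and 0 lower. With any 1 of ac-WT hearts 2, 4 and 5 or ac-CYB5R3-KO heart 3 left out, 1 was higher. The lower gene was Aldh1l2, the mitochondrial enzyme that oxidizes formyltetrahydrofolate, at 0.863 ± 0.274 against 0.562 ± 0.139 CPM (log2 fold change -0.63, unadjusted p = 0.0226, adjusted p = 0.267, edgeR). Its unadjusted call was lost under total count scaling and without ac-WT heart 6 or ac-CYB5R3-KO heart 4 or 5. Mthfd1l, which acts next to MTHFD2 in mitochondria, was at 1.34 ± 0.62 and 1.93 ± 0.464 CPM (0.5, adjusted p = 0.431, edgeR), and its cytosolic counterpart Mthfd1 at 11.4 ± 1.49 and 13.4 ± 2.07 CPM (0.23, adjusted p = 0.401, edgeR). The ratio of Mthfd2 to its paralog Mthfd2l was 0.568 to 1.58 in ac-WT and 1.46 to 2.38 in ac-CYB5R3-KO hearts, with 5 of 6 of the latter above the ac-WT maximum.

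Of 9 tested amino acid transporters, 1 was higher and 1 lower (median -0.032). Slc7a5, the light chain of the large neutral amino acid transporter, was 2.89 to 6.22 CPM in ac-WT (median 4.15) and 4.57 to 7.46 CPM in ac-CYB5R3-KO hearts (median 6.83). The groups overlapped, and the log2 fold change was 0.56 (SE 0.17, unadjusted p = 0.00616, adjusted p = 0.198, edgeR; exact permutation p = 0.013). The cationic transporter Slc7a1 was lower, at 16.1 ± 6.85 against 11.1 ± 1.22 CPM (log2 fold change -0.53, adjusted p = 0.276, edgeR). Its log2 fold change was -0.27 without ac-WT heart 2 and -0.16 under total count scaling, and its unadjusted call was lost in both. The call was also lost with limma-voom, with the replicate block, without ac-WT heart 1 or ac-CYB5R3-KO heart 5, and without ac-WT hearts 2 and 3. It held in 13 of 20 alternatives. Slc1a4 was at 3.94 ± 2.14 against 5.86 ± 0.578 CPM (0.56, adjusted p = 0.41, edgeR). It passed the unadjusted threshold with the replicate block, with limma-voom and without ac-WT heart 4 or 5. In these settings the list had 2 higher genes. Of the 13 cytosolic tRNA synthetases, 11 had a positive log2 fold change (median 0.072), where 8707 of the 17847 genes tested did. At the unadjusted threshold 2 were higher, a count that was 1 without ac-WT hearts 2 and 3 and when any one of ac-WT hearts 1 and 3 or ac-CYB5R3-KO hearts 2, 4 and 6 was left out. These were Nars, at 44.5 ± 5.93 against 53.4 ± 4.15 CPM, and Aars, at 26.5 ± 3.66 against 31.7 ± 2.74 CPM (log2 fold change 0.26 for each, adjusted p = 0.266 and 0.277, edgeR). Gars was at 46.3 ± 10.4 and 53.8 ± 6.45 CPM (0.22, adjusted p = 0.493, edgeR).

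The genes of the neighboring unfolded protein responses were measured in the same hearts. Of 12 genes of the mitochondrial unfolded protein response, 0 were higher and 2 lower at the unadjusted threshold (median -0.006), namely the mitochondrial chaperonin Hspe1, at 76.8 ± 20.2 against 59.0 ± 3.38 CPM (log2 fold change -0.38, adjusted p = 0.254, edgeR), and the matrix protease subunit Clpp, at 28.9 ± 9.17 against 21.7 ± 2.0 CPM (-0.41, adjusted p = 0.27, edgeR). The exact permutation p, with TMM, was 0.00866 for Hspe1 and 0.00649 for Clpp. Both calls were lost under total count scaling and without ac-WT hearts 2 and 3 together. They held with either of these hearts left out alone (unadjusted p = 0.0295 to 0.0497, edgeR). Under total count scaling 2 genes of the list were higher and 0 lower, with Hspe1 at -0.05 and Clpp at -0.07, and without both hearts 0 were lower, with -0.15 and -0.13. Without ac-CYB5R3-KO heart 3 the list had 2 higher and 1 lower. Ubl5, a ubiquitin-like protein, was at 78.7 ± 20.7 and 63.2 ± 5.24 CPM (-0.32, adjusted p = 0.341, edgeR), and 0.0 under total count scaling. Heart 2 of the ac-WT group was the highest of its group in all 3 genes. Of 19 genes of the endoplasmic reticulum response, 1 was higher and 0 lower (median 0.11). It was Hyou1, a chaperone of the reticulum, at 18.9 ± 2.05 against 22.3 ± 3.14 CPM (log2 fold change 0.24, adjusted p = 0.328, edgeR). Hyou1 passed the unadjusted threshold in 10 of 20 alternatives, and the list's count of 1 was 0 in 8 of the 12 fits with 1 heart left out and without ac-WT hearts 2 and 3. Sel1l was at 36.5 ± 3.07 and 40.2 ± 1.18 CPM (0.14, exact permutation p = 0.0216) and Dnajb9 at 17.6 ± 4.6 and 20.7 ± 2.29 CPM (0.23). Neither passed the unadjusted threshold with TMM and all hearts in edgeR. Sel1l passed it with DESeq2 (unadjusted p = 0.0459), where the list's count was 2. Dnajb9 passed it without ac-WT heart 5 (unadjusted p = 0.0342, edgeR).

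**Figure D4:**
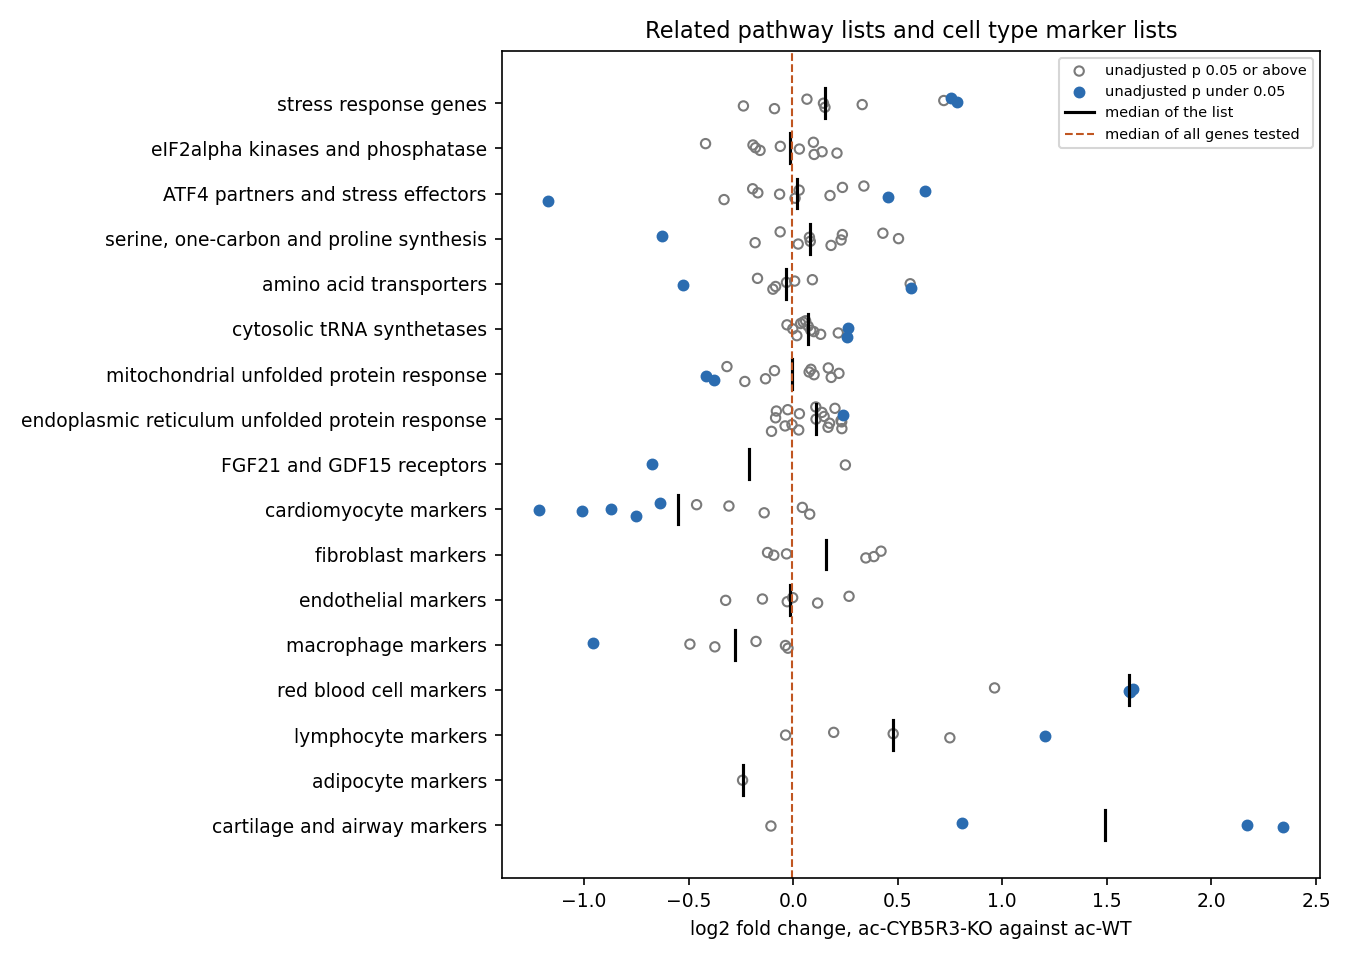
Log2 fold change (ac-CYB5R3-KO over ac-WT) of every tested gene of the stress response genes, each pathway list and each cell type marker list, with 1 point per gene, filled where the unadjusted p is under 0.05, a bar at each list's median and a dashed line at the median of all genes. The medians of the members and pathway lists lie between -0.212 (receptors, 2 genes) and 0.152 (the stress response genes), beside -0.007 for all genes.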

How the data were processed

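RNA-Seq libraries of 12 whole hearts (6 ac-WT, 6 ac-CYB5R3-KO, stranded total RNA kit) were analyzed. The authors deposited raw counts, a whole number per Ensembl gene and library, neither normalized nor filtered. The study's methods name the mm9 genome, while the submitters' processing notes name GRCm39, STAR and featureCounts. Of the 53700 identifiers, 22640 are numbered above those of the mm9 annotation. The annotation and strand setting of the counting are not given in the sources used here. Symbols (31027 identifiers, 57.8%) and exon lengths came from that mm9 annotation (GENCODE), with Dele1 and Adgre1 matched by an older symbol, and 152 of 154 listed genes matched. Columns were assigned by sample labels, with 0 unused.

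Counts were filtered (filterByExpr, minimum count 10), TMM-scaled and tested two-sided by edgeR's quasi-likelihood test (version 4.0.16, R 4.3.3) with Benjamini-Hochberg adjustment over 17847 genes and calls at 0.05. CPM and RPKM use TMM-scaled library sizes. Exact permutation tests used log2(CPM + 1) over 924 arrangements, and correlations 100000 permutations within groups. Alternatives, 20 in all, were DESeq2 (1.42.0), limma-voom (limma 3.58.1), other scalings and filters, the replicate block, leaving out each heart, and leaving out ac-WT hearts 2 and 3. The fits were tested on simulated data. The 12 hearts are separate mice, and same-numbered hearts are different animals. Counts were 37 or more per heart for each tested member, so that differences between mice weigh more than counting error. The reads carry no molecular identifiers and do not count molecules independently.

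Named genes are all 10 members, the 3 genes with the smallest p of each pathway list, Cyb5r3, and the 5 genes most like the members. The members and lists were chosen with earlier results of these data known. Ratios within hearts were added after the values were seen.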

Additional observations from a re-analysis of the deposited data

Results flagged for a closer look

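In 6 of the 66 groups of 6 hearts examined, 1 heart lay far from the other 5, with a gap to its nearest neighbor of at least 0.625 of the group's range. Chance gives such a gap in about 1 in 20 groups. Among the members this was Trib3 in ac-CYB5R3-KO heart 3, at 4.28 CPM where the remaining 5 hearts held 1.91 to 2.8 CPM. Heart 2 of the ac-WT group, which has the lowest scaling factor (0.57), stood apart in 4 genes, Slc7a1 at 28.9 CPM (others 10.6 to 17.4), Hspe1 at 116 CPM (61.5 to 80.5), Clpp at 46.8 CPM (23.1 to 30.6) and Ubl5 at 118 CPM (58.0 to 76.3). Ubl5 was also low in ac-CYB5R3-KO heart 3, at 52.8 CPM (others 63.9 to 67.1).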

How the results depend on the processing

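The number of genes called at an adjusted p under 0.05, 18 with edgeR and TMM, was 8 with total counts, 8 with RLE size factors, 35 with no filter, 7 without ac-WT hearts 2 and 3, 437 with DESeq2, 2 with limma-voom and 2 to 38 with 1 heart left out. Genes at an unadjusted p under 0.05 were 1370 higher with no filter, 831 lower without ac-WT hearts 2 and 3, and 678 to 1276 higher and 1116 to 2092 lower with 1 heart left out. With total counts they were 1686 higher and 367 lower. Of the members, DESeq2 called 1 (Mthfd2) at an adjusted p under 0.05. At the unadjusted p, total counts gave 4 higher members in both the edgeR and the exact permutation test, and leaving out 1 heart gave 1 to 3. Of the pathway genes DESeq2 called 1 (Atf3), and 13 higher and 1 lower with total counts, 3 and 3 without ac-WT hearts 2 and 3, and 3 to 9 higher and 4 to 7 lower with 1 heart left out, passed the unadjusted p. Marker genes higher fell from 7 to 4 with 10 counts required in every library, and were 3 to 8 with 1 heart left out. Positive pairs of members numbered 33 with total counts and 15 to 21 with 1 heart left out.

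Signs turned with total counts in Atf4 (0.22, permutation p = 0.115), Ddit3 (0.09, permutation p = 0.444), Oma1 (0.08) and Ubl5 (0.0), and without ac-WT hearts 2 and 3 in Atf4 (0.03), Asns (-0.02), Psat1 (-0.07) and Dele1 (0.01). With 1 heart left out Atf4 ran from -0.16 to 0.03, turning without ac-WT heart 2. Mthfd2, Chac1, Gdf15, Atf5 and Trib3 kept a positive sign under all 20 alternatives. The adjusted p of Cyb5r3 was 0.315 with total counts, 0.1 with the replicate block and 0.0561 with limma-voom, and exceeded 0.05 when any of 7 of the 12 hearts was left out. The causes of these shifts were not tested.

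The hearts were not paired by replicate number in the edgeR fit with TMM. Deviations of same-numbered hearts correlated at 0.133 on average (-0.16 to 0.36, 6 pairs). The 30 other pairs correlated at -0.0255 on average (-0.365 to 0.329). Of the 6 ac-WT hearts, 3 correlated best with the ac-CYB5R3-KO heart of their own number. Whether hearts of the same number share a processing step was not tested. With the replicate block 2 genes were called, and Mthfd2 had a log2 fold change of 0.82 (adjusted p = 0.195, edgeR) and Gdf15 of 0.84 (unadjusted p = 0.015, edgeR).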
